A study of Homo sapiens with 10 samples.

Results

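MDA-MB-435, a human line that the labels call melanoma, was studied in its untreated state on 2 of the 10 bead arrays of the series. Both arrays carry the label of untreated cells in standard growth, the labels name no agent and no transduced gene for them, and the design text calls them biological duplicates. Control probes for a neomycin resistance gene nevertheless gave strong signal on both arrays, at 8580.5 and 11356.2 for the dimmer of 2, and the source was not tested. All 10 samples of the series came from this line, and the other 8, given HGF or transduced with integrin beta-4, served only to set a common scale and were not compared with the untreated cells. A gene was called expressed if at least 1 of its probes reached a detection score of 0.99 on both untreated arrays, undetected if none of its probes reached it on either, and mixed otherwise. The score, made by the scanner software, runs from 0 to 1 and places a probe's signal against the negative control beads of the same array. Of 16352 genes with a named probe, 8589 were expressed (52.5%), 1174 were mixed and 6589 were undetected (40.3%). Of all 24105 probes, named or not, 10512 were expressed (43.6%). The 36 gene lists described below hold 991 genes, of which 891 had a named probe, and the others were not analysed here.

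Melanocytes are pigment cells that arise from the neural crest. The transcription factors SOX10 and MITF hold the lineage, and MITF drives the enzymes that make melanin and the structural proteins of the melanosome, the organelle in which melanin is laid down. MDA-MB-435 was long used as a breast cancer line, which makes mammary markers a second point of interest. Epithelial cells such as those of the mammary gland are instead recognised by E-cadherin, desmosomes, claudins and keratins. Which of these programmes is present is therefore read from lists of marker genes.

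MITF is known to bind the sequence CATGTG, the core of the longer M-box, and the related CACGTG. To show this feature next to the expression data, the 250 bases before the transcription start were taken from RefSeq promoter windows (GRCh38.p14) for 24 of the 31 measured melanocyte genes. The motif CATGTG, sought on both strands, lay in 10 of these 24 (41.7%), against 6.79% of the 13163 measured genes with a window. The list was chosen to hold genes of the lineage, known targets of MITF among them, so these shares are no test. CATGTG lay in 8 of 18 expressed and in 2 of 5 undetected members, counts too small to compare. CACGTG differs from CATGTG and its reverse complement, so no stretch counted for both motifs, and it lay in 1 of the 24 and in 7.94% of all windows. Below are the windows of 3 expressed melanocyte genes and of 1 undetected epithelial gene, with matches to either motif in capitals. TYR and TYRP1 hold the motif, MLANA is expressed without it, and DSP, desmoplakin, shows the CG-rich kind of promoter.
TYR: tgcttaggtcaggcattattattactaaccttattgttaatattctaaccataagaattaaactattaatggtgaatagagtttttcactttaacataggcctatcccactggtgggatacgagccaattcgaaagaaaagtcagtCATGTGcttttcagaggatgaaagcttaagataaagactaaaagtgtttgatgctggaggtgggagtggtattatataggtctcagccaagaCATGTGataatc
TYRP1: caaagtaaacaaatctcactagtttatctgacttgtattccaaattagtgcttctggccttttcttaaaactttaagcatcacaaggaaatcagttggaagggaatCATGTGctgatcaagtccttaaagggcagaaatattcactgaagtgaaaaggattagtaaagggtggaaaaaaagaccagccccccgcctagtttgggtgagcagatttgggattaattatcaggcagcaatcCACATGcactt
MLANA: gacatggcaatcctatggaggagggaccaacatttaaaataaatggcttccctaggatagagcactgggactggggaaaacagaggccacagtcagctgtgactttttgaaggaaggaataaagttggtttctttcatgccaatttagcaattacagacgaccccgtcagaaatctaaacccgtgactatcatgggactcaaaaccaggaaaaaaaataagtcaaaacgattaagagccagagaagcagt
DSP: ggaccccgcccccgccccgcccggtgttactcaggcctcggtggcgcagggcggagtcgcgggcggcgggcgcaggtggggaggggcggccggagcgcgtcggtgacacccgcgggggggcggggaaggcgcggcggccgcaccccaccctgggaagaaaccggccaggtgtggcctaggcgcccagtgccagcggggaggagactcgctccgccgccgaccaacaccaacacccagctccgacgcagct
These windows lie on the plus strand at chr11:89177625-89177874 (TYR), chr9:12693135-12693384 (TYRP1), chr9:5890639-5890888 (MLANA) and chr6:7541421-7541670 (DSP). The matches in TYR begin 104 and 12 bases before the start site, and those in TYRP1 144 and 11 bases before it. A match is a description of the letters in the window and not a test of binding.

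Across all measured genes, promoter sequence differed between expressed and undetected genes. The 250 bases held a median of 21 CG pairs in 7196 expressed genes and 10 in 5068 undetected genes, with mixed genes at 15. Expressed melanocyte genes lay below either group, at a median of 7.5 over 18 genes, whereas the 11 housekeeping genes with a window had 24. The TATAAA motif, on either strand, was found in 5.34% of expressed and 13.3% of undetected genes. These are descriptions without a test, since genes are not replicates.

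The arrays gave closely similar signals. On the log2 scale the normalised signals of the arrays gave Pearson's r of 0.987 and Spearman's rho of 0.943 over the 24105 probes, a description and not a test, since probes are no replicates. Among expressed probes the median absolute difference between the arrays was log2 0.17, the 95th percentile was 0.53, and 10 of 10512 probes differed by more than log2 1. Replicate 1 detected 11444 probes and replicate 2 11507, of which 932 and 995 were detected on that array alone. The lowest detected scanner signal was 90.6 on replicate 1 and 94.3 on replicate 2. The arrays stood apart in their dim probes, since the 25th percentile of the detection score was 0.0199 on replicate 1 and 0.291 on replicate 2. For that reason counts are given with mixed genes beside them, and the genes that results turn on are given with their signal on both arrays.

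**Figure D1:**
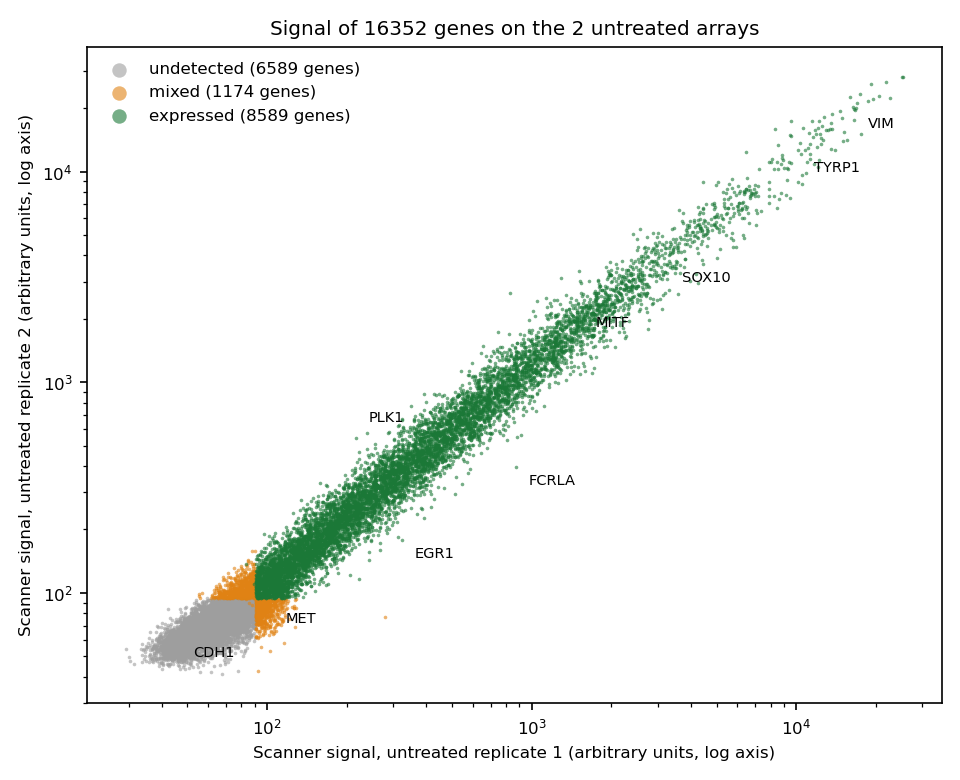
Scanner signal of each of the 16352 genes, by its brightest probe, on untreated replicate 1 (horizontal, arbitrary units, log axis) and replicate 2 (vertical, arbitrary units, log axis), with green points for expressed, orange for mixed and grey for undetected genes. The points follow the diagonal, and PLK1, EGR1 and FCRLA stand off it.

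Detection had a floor of its own. Of 199 measured olfactory receptors, genes of the nasal sense of smell and chosen as a reference after the data were seen, 17 were expressed by the score (8.54%), and the brightest of them reached log2 7.36. Of the 8589 expressed genes 6269 were brighter than this level, and expressed genes under it lay in a range that olfactory receptor probes also reached. The lack of a signal was not proof of a silent gene either. PRDX1, an antioxidant enzyme found in nearly all cells, read 65.9 and 76.3 and was undetected. Probes of the same gene also differed, since 783 of 1682 genes with several probes had some probes expressed and others not. Whether the probes of a gene read the same transcripts was not examined, so a dim probe need not conflict with a bright one. In what follows signals are scanner intensities in arbitrary units on replicates 1 and 2, in that order, levels are log2 normalised signals, and a percentile is the place of a gene's brightest probe among all 16352 genes. Probes bind with different strength, so a percentile ranks probe signals and not numbers of RNA molecules.

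The top of the ranking was held by genes of translation and the cytoskeleton. Of the 25 brightest genes, 13 encode proteins of the cytosolic ribosome, beginning with RPL41 at 25374 and 28122 and including RPS14 and RPS2. Translation elongation factors were also among them, with EEF1A1 at 25014 and 28170.1 and EEF1D at 13589.9 and 16936. Cytoskeletal genes were beta-actin ACTB (17478 and 23259), the filament protein vimentin VIM (16746 and 19709), the actin-binding profilin PFN1 (16441 and 20184) and the tubulin TUBA1B (12766 and 18223). The glycolytic enzyme ENO1 read 14670 and 19468, and OAZ1, an inhibitor of polyamine synthesis, 13624 and 18681. The remaining 4 were FAM98B (22729.5 and 22412), RSU1 (20609 and 22934), XPNPEP3 (18716 and 21592) and SLFN13 (15224 and 15471), each named by a probe annotation of the array's time. RSU1 had a second named probe at log2 7.70, far under the 14.45 of the bright one, so its place rests on 1 probe, as do those of the other 3. All 13 measured housekeeping genes were expressed, from TBP, the TATA-binding protein (230.4 and 240), to EEF1A1.

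The melanocyte programme was on. Of 31 measured melanocyte genes, 24 were expressed (77.4%, against 52.5% of all genes), 1 was mixed and 6 were undetected, and 22 were also brighter than every olfactory receptor. The median percentile of the list was 87.9, against 50 for all genes by definition. SOX10 read 3322 and 3675 (log2 11.77 ± 0.11 SD, n = 2) and MITF 1568 and 2244 (log2 10.84 ± 0.15 SD, n = 2), which placed these regulators at the 97.9 and 95.1 percentiles. MITF had 3 probes and only the brightest was expressed, with the others at log2 6.48 and 6.34. TFAP2A, another factor of the lineage, read 142 and 184, under the olfactory level, and PAX3, which acts upstream of MITF, read 96.9 and 86.3 and was mixed, with detection on replicate 1 alone.

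Both measured pigment enzymes were bright. TYRP1, which acts late in melanin synthesis, read 10468 and 12154 (log2 13.46 ± 0.02 SD, n = 2, percentile 99.6) and was the brightest gene of the list. TYR, tyrosinase, the rate-limiting enzyme, read 2699 and 2588 (log2 11.35 ± 0.26 SD, n = 2, percentile 97.0). Of 13 genes of melanosome structure and transport 10 were expressed (76.9% against 52.5% of all genes). They included PMEL, which forms the fibrils of the melanosome (4256 and 2954), MLANA, also known as Melan-A (1886 and 1473), the glycoprotein GPNMB (4328 and 5209) and the trafficking proteins RAB38 (4637 and 5720.3), RAB27A (2715 and 2261) and MYO5A (2398 and 2369.6). On the normalised scale PMEL, MLANA and RAB27A were lower on replicate 2, with differences of -0.80, -0.68 and -0.59 (log2, replicate 2 minus replicate 1), and GPNMB and RAB38 differed by 0.01 and 0.04. RAB27A had 1 of 4 probes expressed. The ion exchanger SLC24A5 read 412 and 341. The other pigment transporters SLC45A2 (80.3 and 79.6) and OCA2 (43.5 and 56.2) and the channel TRPM1 (86.2 and 80.8) were undetected.

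Surface receptors of the lineage were split. EDNRB, the endothelin receptor of melanocytes, read 673 and 1096 with all 4 of its probes expressed, MC1R, the melanocortin receptor that sets pigment type, read 295 and 319 and ERBB3 read 353 and 389.8. KIT, the receptor for stem cell factor, read 53.2 and 55.5 and was undetected. CSPG4, a melanoma surface proteoglycan (67 and 72.2), and MCAM, an adhesion molecule of melanoma (52.3 and 59.5), were undetected as well. All 6 calcium-binding, secreted and survival genes of the list were expressed, against 52.5% of all genes. Of these the clinical marker S100B was dim (144 and 167, percentile 59.2), S100A1 read 794 and 898, and the secreted melanoma protein MIA read 1314 and 1403. CAPN3 read 2879 and 2368 and the survival gene BCL2A1 328 and 363.

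**Figure D2:**
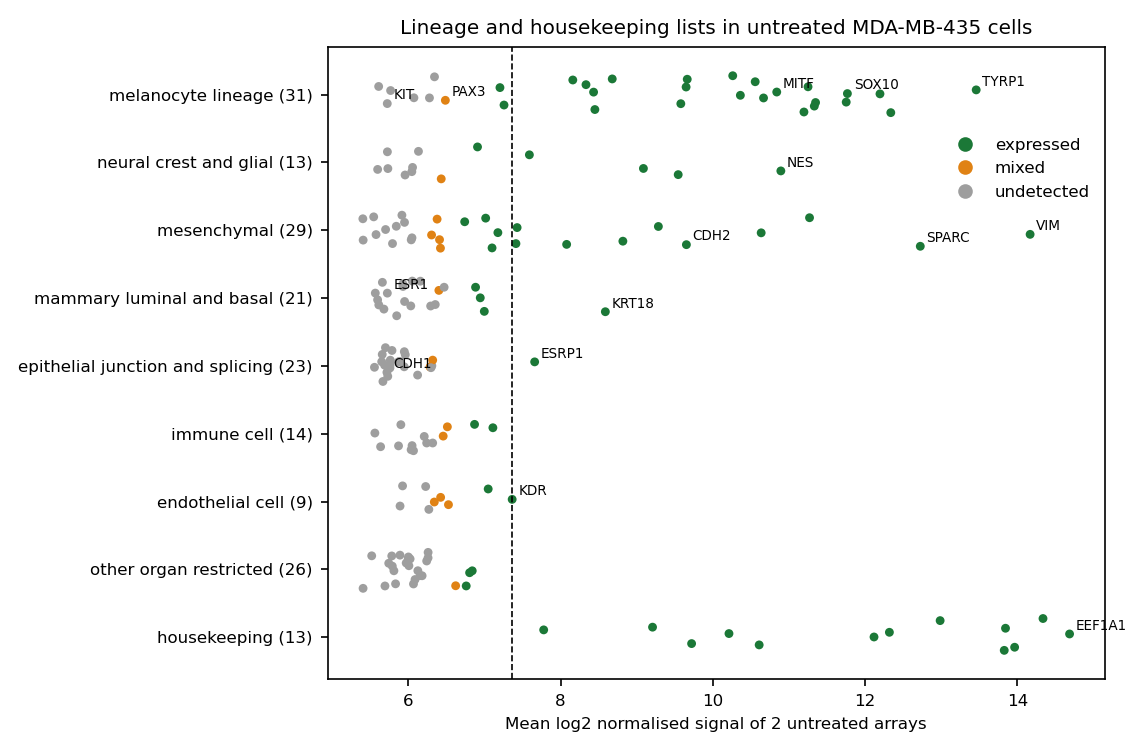
Mean log2 normalised signal over the 2 untreated arrays (horizontal) of each measured gene of 9 lists (rows, number of genes in brackets), with green points for expressed, orange for mixed and grey for undetected genes and vertical scatter added for legibility. The dashed line at 7.36 marks the brightest olfactory receptor, and 22 of 31 melanocyte genes lie to its right, against 1 of 21 mammary and 1 of 23 epithelial genes.

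Neural crest genes were partly on. Of 13 measured, 5 were expressed, 1 mixed and 7 undetected (38.5% against 52.5% of all genes). The intermediate filament nestin, NES, read 1705 and 2238 and the transcription factors ZIC1, SOX9 and MSX1 read 676 and 921, 640.2 and 521 and 200.5 and 212. All 4 were above every olfactory receptor. The dimmer cadherin CDH19 (119.7 and 129.6) was expressed under the level of the brightest olfactory receptor. The neurotrophin receptor NGFR (50.9 and 57.6) and the adhesion molecule L1CAM (51.9 and 84.7) were undetected.

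The mesenchymal list held both bright and silent genes. Of 29 measured genes 14 were expressed, 4 mixed and 11 undetected (48.3% against 52.5% of all genes). VIM stood at the 99.9 percentile, and the matrix proteins SPARC (5939 and 7754) and tenascin C, TNC (2571 and 2447), at 99.2 and 96.7. CDH2, N-cadherin, read 681 and 1066. Of the transcription factors that repress epithelial genes, SNAI2 read 1403 and 1931 and ZEB2 529 and 439.8, TWIST1 was dim (127 and 165), ZEB1 was mixed (92.1 and 83.4) and SNAI1 was undetected (62.5 and 72.7). The main fibrillar collagens were not detected, namely COL1A1 (62.8 and 62.5), COL1A2 (45.5 and 68.3) and COL3A1 (48.6 and 69.1), while the minor ones COL5A3 (114 and 106) and COL11A2 (93.9 and 124) were expressed under the olfactory level. Fibronectin, FN1, had 1 of 3 probes expressed at 101 and 122, and S100A4 was mixed (70.4 and 109). The proteoglycan lumican, LUM, read 661 and 661 and decorin, DCN, 257 and 329.

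Mammary and epithelial genes were mostly off. Of 21 measured mammary genes 4 were expressed, 1 mixed and 16 undetected (19.0% against 52.5% of all genes). None of the 6 hormone receptors and luminal regulators was expressed or mixed. ESR1, the oestrogen receptor, read 45.3 and 63.1, the progesterone receptor PGR 47.8 and 51.3, and the luminal factors GATA3 and FOXA1 73.4 and 56.2 and 50.8 and 53.1. Of the keratins, KRT18 was expressed with both of its probes (374 and 454, percentile 77.8), and it was the only mammary list member above every olfactory receptor. KRT8, its usual partner (129.8 and 137), KRT7 (104 and 161) and KRT14 (115 and 131) were expressed under the olfactory level, KRT5 was mixed (75.2 and 100), and KRT19 (57 and 68.1) and the mucin MUC1 (89.5 and 73.7) were undetected.

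The epithelial junction and splicing list had the lowest expressed share of the 36 lists. Of 23 measured genes 1 was expressed (4.35%, against 52.5% of all genes), 2 were mixed and 20 were undetected, at a median percentile of 11.3. All 13 junction genes were undetected, among them CDH1, E-cadherin (47 and 60.9), EPCAM (51.1 and 57.8), DSP (43.3 and 52.6) and JUP, plakoglobin (66.8 and 63.1). The exception within the list was ESRP1, a splicing regulator of epithelial transcripts, at 219 and 212 (log2 7.66 ± 0.18 SD, n = 2). Its relative ESRP2 was undetected (53.7 and 53.5). Outside the list OVOL2, a relative of the list member OVOL1, was bright (4176 and 3265, log2 11.82 ± 0.44 SD, n = 2, percentile 98.0). Its name rests on a probe annotation of the array's time, which was not checked. In 250-base windows the CG count had a median of 18 over the 10 undetected members with a window.

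Markers of other cell types lay at or near the floor. Of 14 leukocyte genes 2 were expressed, 2 mixed and 10 undetected (14.3% against 52.5% of all genes), and neither of those expressed, LYZ (123 and 173) and GNLY (101 and 149.7), was brighter than every olfactory receptor. The leukocyte antigen PTPRC was mixed (85 and 104). Of 9 endothelial genes 2 were expressed, 3 mixed and 4 undetected (22.2%), with the VEGF receptor KDR (167 and 182) just above the olfactory level, TIE1 (122 and 158) under it, and PECAM1 (81 and 95.8) and VWF (72.5 and 94.9) mixed. Judged by replicate 2 without replicate 1, 5 endothelial genes passed the score, and by replicate 1 without replicate 2, 2 did. Of 26 genes restricted to other organs 3 were expressed, 1 mixed and 22 undetected (11.5%), and TTR (122 and 113), SFTPC (123 and 106) and INS (93.5 and 138) were expressed at log2 6.84, 6.80 and 6.76, all under the olfactory level. Albumin, ALB, was undetected (56.6 and 90.1). Of 16 tumour antigens of the cancer-testis and melanoma kind, 4 were expressed, 2 mixed and 10 undetected (25%). PRAME read 609 and 775, MAGEA1 701 and 898, MAGEA3 864 and 949 and CTAG2 174 and 207. MAGEA6, outside this list, was brighter (1683 and 1649, log2 10.66). The MAGEA and CTAG genes have near-identical copies, so their probes may read several of them.

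**Figure D3:**
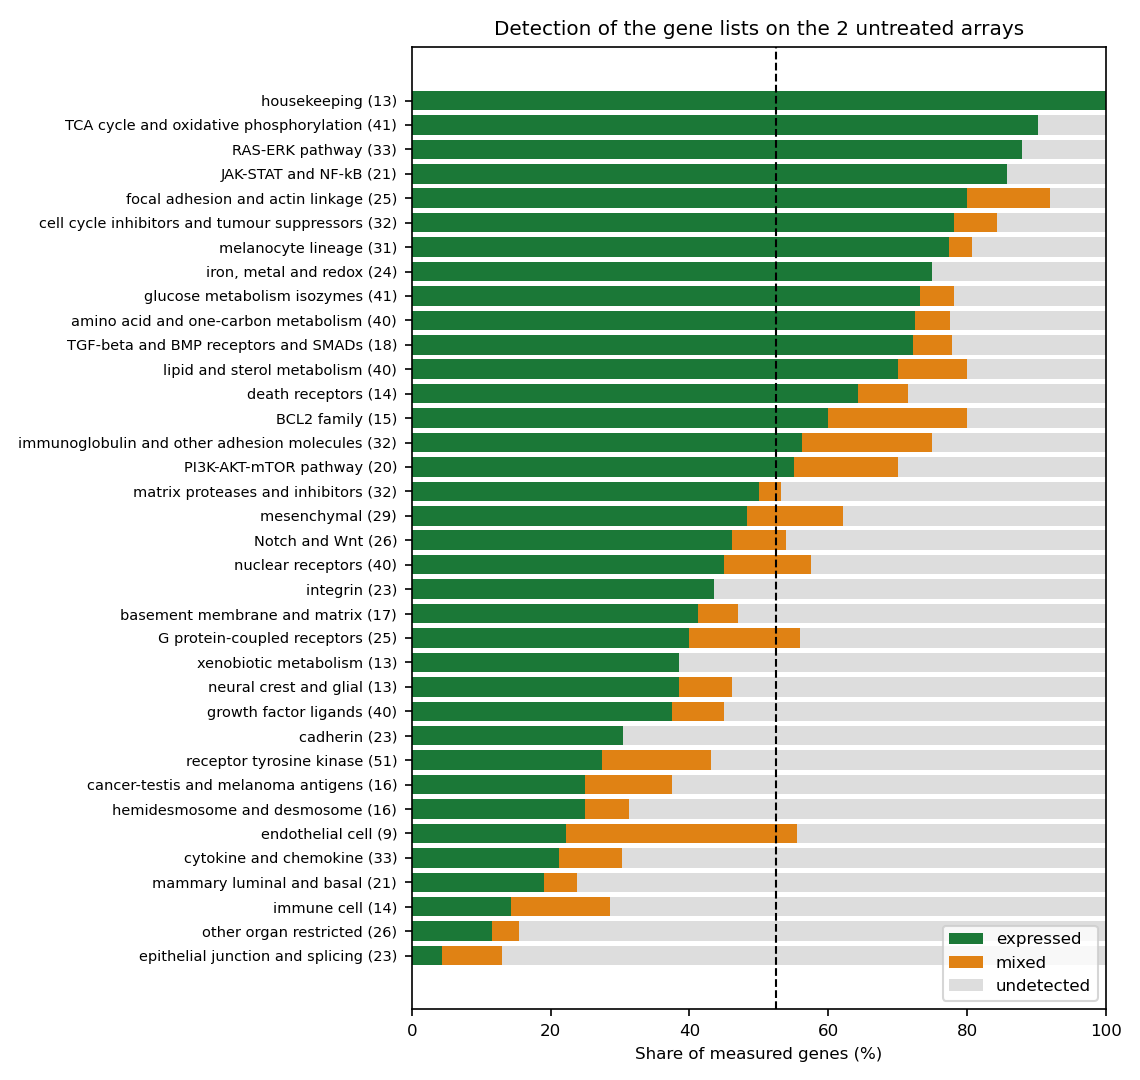
Share of the measured genes of each of the 36 lists (rows, number of genes in brackets) that were expressed (green), mixed (orange) or undetected (grey) on the 2 untreated arrays, in percent. The dashed line marks the 52.5% of all genes that were expressed, and the lists run from housekeeping, with 13 of 13, down to epithelial junction and splicing, with 1 of 23.

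Integrins, the receptors that tie cells to the matrix, were expressed at a share not far under that of all genes. Of 23 measured subunits 10 were expressed, 0 mixed and 13 undetected (43.5% against 52.5% of all genes). ITGA6, the partner chain of ITGB4, had no named probe, nor had ITGA11 and ITGAD. Among beta subunits ITGB1, the common partner chain, read 4214 and 4354 (log2 12.04 ± 0.14 SD, n = 2), ITGB5 read 1171 and 1726 and ITGB8 151 and 143. ITGB1 had 5 probes, of which 2 were expressed. ITGB3, the chain often linked to invasive melanoma, was undetected (67.6 and 69.2), and so were ITGB4, the hemidesmosome chain that another group of the series received (59.1 and 68.1), and the leukocyte chain ITGB2 (50.4 and 55.5). Among alpha subunits ITGAE (613 and 817) and ITGA9 (176 and 229.7) were above every olfactory receptor. The matrix receptors ITGA2 (120.2 and 126), ITGA3 (109 and 117), ITGA5 (101 and 116) and ITGAV (116 and 118) were expressed at percentiles of 53.8, 51.6, 50.1 and 52.4, close to the floor. ITGA4 was undetected (50.8 and 54.1).

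N-cadherin was the only classical cadherin measured above every olfactory receptor. Of these 19 genes 4 were expressed, 0 mixed and 15 undetected (21.1% against 52.5% of all genes), and CDH18 (122 and 168), CDH12 (137 and 120) and CDH19 were expressed under the olfactory level, while P-cadherin CDH3 was undetected (52.2 and 74.1). Of 4 catenins, which join cadherins to the cell interior, 3 were expressed and plakoglobin, JUP, was not, with alpha-catenin CTNNA1 at 783 and 880.2, p120-catenin CTNND1 at 257 and 337 and beta-catenin CTNNB1, under the olfactory level, at 162 and 164. Desmosomes were off, with 1 of 12 genes expressed, DSC3 (105 and 98.7), which lay under the olfactory level. Of the hemidesmosome genes, the tetraspanin CD151 (1944 and 3157) and the plakins PLEC (161 and 223) and DST (195 and 181) were expressed. ITGA6 and COL17A1 had no named probe. Of 32 other surface adhesion genes 18 were expressed (56.2%), near the 52.5% of all genes. Tetraspanins and basigin led them, with CD9 at 5426 and 6264, CD63 at 3335 and 3534, CD81 at 2514 and 3416 and BSG at 4912 and 7064. ICAM1 was dim (152 and 176) and ALCAM undetected (67 and 91.5).

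The cytoplasmic side of adhesion was broadly expressed. Of 25 focal adhesion genes 20 were expressed, 3 mixed and 2 undetected (80% against 52.5% of all genes). The actin regulator VASP read 3853 and 5564, the actin cross-linker ACTN1 2792 and 3448, the integrin-linked kinase ILK 2172 and 3208 and the focal adhesion kinase PTK2 1530.4 and 1647. Caveolin 1, CAV1, read 251 and 240.3. Among 9 laminin chains 6 were expressed (66.7% against 52.5% of all genes). LAMC1 read 1219 and 1204, LAMB1 319 and 335 and LAMA4 218 and 266. The partner network of collagen IV was not seen, since COL4A1 (53.4 and 54.1) and COL4A2 (52.3 and 66.5) were undetected, whereas COL4A5 read 369.9 and 292.

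Matrix proteases were detected in part. Of 24 proteases 10 were expressed (41.7% against 52.5% of all genes), with cathepsins CTSD (2565 and 3252) and CTSB (992 and 1028), the membrane metalloproteinase MMP17 (820 and 1280.2) and the gelatinase MMP2 (301 and 443). MMP14, which activates MMP2, read 129 and 219. The secreted metalloproteinases MMP1 (56.7 and 89.7) and MMP9 (48.6 and 59) and the urokinase PLAU (58 and 64.6) were undetected. Inhibitors were on, with TIMP1 at 1334 and 1634, TIMP2 at 1616 and 2099.8, TIMP3 at 319 and 369 and SERPINE2 at 2554 and 2591.

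Few receptor tyrosine kinases were detected. Of 51 measured 14 were expressed, 8 mixed and 29 undetected (27.5% against 52.5% of all genes), and 9 were brighter than every olfactory receptor. These were EPHA3 (649 and 712), the Wnt co-receptor RYK (586 and 656), the collagen receptors DDR2 (387 and 478) and DDR1 (220.1 and 258), FLT4 (389 and 387), ERBB3, TYRO3 (236 and 355), EPHB4 (144 and 234) and KDR. MET, the receptor for HGF, read 106 and 88 and was mixed, with detection on replicate 1 alone. Among its relatives MST1R (64 and 77.9), AXL (62.9 and 74.3) and MERTK (46.8 and 67.5) were undetected. EGFR had 1 of 4 probes expressed at 105 and 111, ERBB2 was mixed (108 and 80) and ERBB4 undetected (52.5 and 57.6). The growth receptors IGF1R (96.8 and 81.6), INSR (79.8 and 94.7) and FGFR1 (87.4 and 103) were all mixed, and PDGFRA was undetected (45.3 and 58.2). Probes disagreed for some of the brightest receptors, since 1 of 3 probes was expressed for EPHA3, whose others were at log2 6.12 and 5.58, 1 of 3 for FLT4 and 1 of 2 for DDR1.

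**Figure D4:**
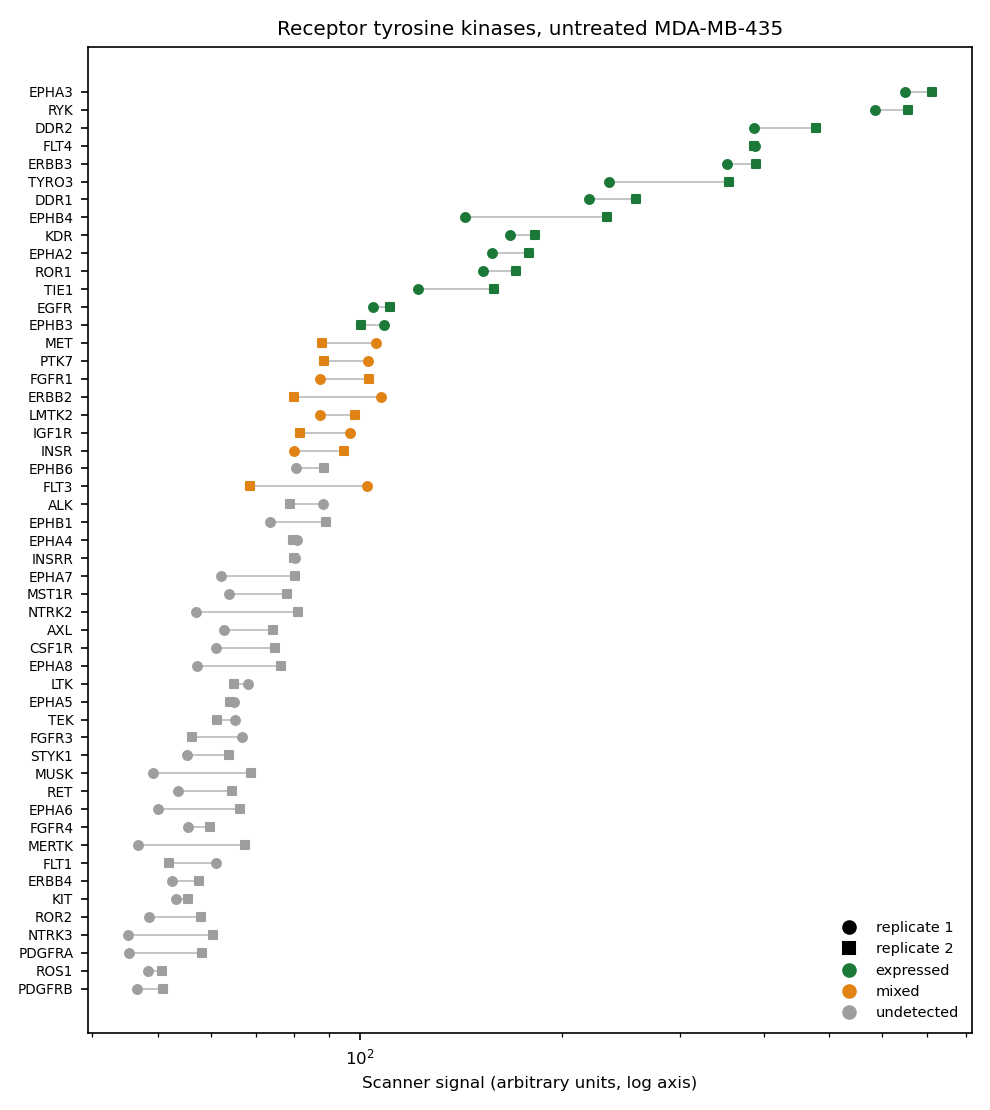
Scanner signal (horizontal, arbitrary units, log axis) of 51 receptor tyrosine kinases (rows, ordered by mean log2 normalised signal) on untreated replicate 1 (circles) and replicate 2 (squares), with green for expressed, orange for mixed and grey for undetected genes. EPHA3 stands at the top with 649 and 712 by 1 of its 3 probes, and MET, at 106 and 88, lies in the mixed range.

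Secreted ligands were expressed at shares under that of all genes. Of 40 growth factors and related secreted proteins 15 were expressed, 3 mixed and 22 undetected (37.5% against 52.5% of all genes), and 6 were brighter than every olfactory receptor. Brightest was MIF, a cytokine of many cell types (10575 and 16189), followed in the ranking by osteopontin SPP1 (4542 and 5819), pleiotrophin PTN (1094 and 1807) and VEGFB (352 and 592). HGF was undetected (50.3 and 64.8), as were KITLG (75 and 75.1), GAS6 (60.4 and 66.5), FGF2 (71.6 and 69.8) and VEGFA (51.1 and 53.9). Neither MET nor HGF was thus detected on both arrays. Protein S, PROS1, which like GAS6 is a ligand of TYRO3 and is in no list, was expressed (2133 and 1737). Of 15 cytokine and chemokine ligands 2 were expressed (13.3%), the inflammasome cytokine IL18 (5027 and 3876, log2 12.10 ± 0.44 SD, n = 2) and the dim chemokine CXCL8 (173 and 136). CXCL1 (73.8 and 79.5) and IL6 (67 and 84.9) were undetected.

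Cytokine receptors were mostly undetected too. Of 18 measured 5 were expressed, 1 mixed and 12 undetected (27.8% against 52.5% of all genes), with both chains of the interferon gamma receptor on, IFNGR1 (626 and 569.9) and IFNGR2 (1055 and 1304). The TNF receptor TNFRSF1A read 756 and 1388 and was log2 0.61 higher on replicate 2, a gap beyond the 95th percentile of expressed probes. IL6ST (80.4 and 86.2) and the chemokine receptor CXCR4 (40.4 and 55.2) were undetected. Of 25 G protein-coupled receptors 10 were expressed, 4 mixed and 11 undetected (40%). The brightest of these 25 was the adhesion receptor ADGRG1, formerly GPR56 (2609 and 2954, log2 11.42 ± 0.10 SD, n = 2). EDNRB, MC1R and the Wnt receptors FZD6 (428 and 279) and FZD2 (282 and 422) were also above every olfactory receptor. The thrombin receptor F2R was dim (113 and 144). CMKLR2, a receptor outside this list, was brighter than ADGRG1 (7054 and 5604, log2 12.64).

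Most receptors of TGF-beta and BMP were expressed, and the type II TGF-beta chain was not detected. Of 10 receptors 7 were expressed, 1 mixed and 2 undetected (70% against 52.5% of all genes), and TGFBR2, which starts the TGF-beta signal, read 48 and 50.3 and was undetected, at the 2.33 percentile. ACVR1 read 709 and 714, TGFBR3 252 and 293 and BMPR2 139.7 and 129. Downstream, SMAD2 (849 and 1032) and SMAD4 (792 and 899) were bright and SMAD3 dim (156 and 167). In the Notch list HEY1, a target of the pathway, read 1591 and 1774 and HES1 142 and 185, while the receptor NOTCH2 was undetected (58.5 and 76.5) and the ligand JAG1 was near the floor (105 and 106). In the Wnt list GSK3B read 1014 and 995 and LEF1, a nuclear effector active in melanocytes, 477 and 517, and AXIN2, a feedback target, was undetected (39.6 and 55.3).

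Of 40 nuclear receptors 18 were expressed, 5 mixed and 17 undetected (45% against 52.5% of all genes). The orphan receptor NR2F6 read 662 and 1056, the retinoid receptor RXRG 493 and 586, the thyroid hormone receptor THRA 467 and 531 and NR4A2 379.7 and 545. RARA was expressed at 182 and 243, the glucocorticoid receptor NR3C1 near the floor at 111 and 103, and the vitamin D receptor VDR was mixed (73.6 and 95.9). Of 14 death receptor genes 9 were expressed, 1 mixed and 4 undetected (64.3%). The TRAIL receptor TNFRSF10B read 1406 and 1315 and FAS was mixed (87.4 and 117). None of the 3 probes of the initiator CASP8 was detected, the brightest reading 74.5 and 90.6. CASP10 read 312 and 409 by its brighter probe, while its other probe was undetected at 72.5 and 57.3.

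The RAS-ERK pathway was among the most complete lists. Of 33 measured genes 29 were expressed, 0 mixed and 4 undetected (87.9% against 52.5% of all genes). All 5 measured RAS and kinase genes were expressed, namely MAP2K2 (7209.6 and 10299), MAPK3 (1937 and 3376), MAP2K1 (669 and 965), HRAS (215 and 328) and ARAF (167 and 206). Adaptors were led by GAB2 (3573 and 4134), PTPN11 (1189 and 1274) and SHC1 (1014 and 1369.8), and GAB2 had 1 of 3 probes expressed. Of 19 output and feedback genes 18 were expressed and ETV1 was undetected (81.4 and 89.4). They included IER3 (2874 and 5136), ETV5 (3146 and 3241) and MYC (2526 and 2612). The feedback inhibitors SPRY2 and DUSP6 read 1959 and 2083 and 805 and 705, and CCND1 read 216 and 243 and FOSL1 171 and 214.

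Of 20 genes of the PI3K-AKT-mTOR list 11 were expressed, 3 mixed and 6 undetected (55% against 52.5% of all genes). RHEB, the activator of mTOR, read 2252 and 2934, the lipid phosphatase INPP4B 1755 and 2561 and the translation repressor EIF4EBP1 1731 and 2476. AKT1 was expressed (282 and 436) and AKT2 mixed (106 and 77.9). In the JAK-STAT list STAT6 (359 and 352), STAT3 (337 and 309) and STAT5A (279 and 378) were on, and the lymphoid kinase JAK3 was undetected (50.1 and 65.2). All 10 measured NF-kB genes were expressed, from NFKB1 (857 and 1025) and RELA (811 and 946) to the dim REL (112 and 114).

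Most cell cycle genes were expressed. Of 16 cyclins, kinases and replication genes 13 were expressed (81.25% against 52.5% of all genes). CCNB2 read 1984 and 3244, CCNB1 1810.2 and 2857, CDK1 1533 and 2276 and CDK4 871 and 1346. Of the D cyclins CCND3 read 1050.3 and 2429 (log2 10.60 ± 0.67 SD, n = 2), so its arrays lay far apart. CCND1 read 216 and 243, and CCND2 was undetected (58.4 and 61). Among inhibitors CDKN1B read 520.3 and 853 and CDKN1A 236 and 286. CDKN2A had 1 of 2 probes expressed at 129 and 198, the other reading at log2 5.75, and CDKN2B had 1 of 2 at 207 and 159.7. RB1 was dim (149 and 158). Of 15 genes of the BCL2 family 9 were expressed, 3 mixed and 3 undetected (60% against 52.5% of all genes). The survival genes BCL2L1 (888 and 1032), MCL1 (422 and 392) and BCL2 (164 and 168) were expressed, and neither probe of the effector BAX reached the score (brighter probe 68.4 and 91.6), while its relative BAK1 read 200.4 and 244.

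Most genes of glucose metabolism were expressed, and the undetected ones included several isozymes of other tissues. Of 41 genes of glucose metabolism 30 were expressed, 2 mixed and 9 undetected (73.2% against 52.5% of all genes). HK1 (3604 and 6558) and HK2 (153 and 150.4) were expressed and HK3, the white-cell hexokinase, was undetected (63.5 and 67.6). HK1 had 1 of 4 probes expressed. All 3 phosphofructokinases were expressed, the liver form PFKL at 1541 and 1926, the platelet form PFKP at 1483 and 1926 and the muscle form PFKM at 342 and 434. Of the aldolases ALDOA read 9602 and 14691 and ALDOC lay near the floor (106 and 136). LDHA (13185 and 15713) and LDHB (11546 and 14646) were both among the top 1% of genes, and the testis form LDHC was mixed (92.4 and 90.6). PKM read 1466 and 2257, and PKLR, of liver and red cells, had 1 of 3 probes expressed near the floor (91.4 and 104).

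Glucose transporters were dim, with SLC2A3 at 189 and 183, SLC2A1 at 95.7 and 97.7, SLC2A4 mixed (92.4 and 80.9) and the liver form SLC2A2 undetected (52.2 and 58.8). In gluconeogenesis the mitochondrial PCK2 was expressed (1860.5 and 1832), and the cytosolic PCK1 (49 and 51.4), FBP1 (56.3 and 66.3) and G6PC1 (66.4 and 86.1) were undetected. The pentose phosphate enzymes TALDO1 (5811 and 7982) and TKT (4489.8 and 5906) were bright, and TKTL1 was undetected (44.1 and 56.9).

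Nearly all respiratory genes were detected. All 18 measured TCA cycle genes were expressed, against 52.5% of all genes. MDH1 read 4984 and 8642, MDH2 2092 and 2810, IDH1 1719 and 1167 and IDH2 997 and 1720.4. On replicate 2 IDH1 was lower (log2 -0.88) and IDH2 higher (0.50). Of 23 respiratory chain genes 19 were expressed (82.6% against 52.5% of all genes). The 4 undetected genes were NDUFS1 (63.2 and 75.6) and the tissue-restricted forms COX4I2 (41.3 and 51.8), COX6A2 (46.8 and 61.2) and COX7A1 (75.3 and 67). Their widespread counterparts COX4I1 (6124 and 8059), COX6A1 (2868 and 4346) and COX7A2 (3925 and 5557) were expressed. PPARGC1A, a coactivator of mitochondrial genes under MITF control in melanocytes, read 312 and 304.

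**Figure D5:**
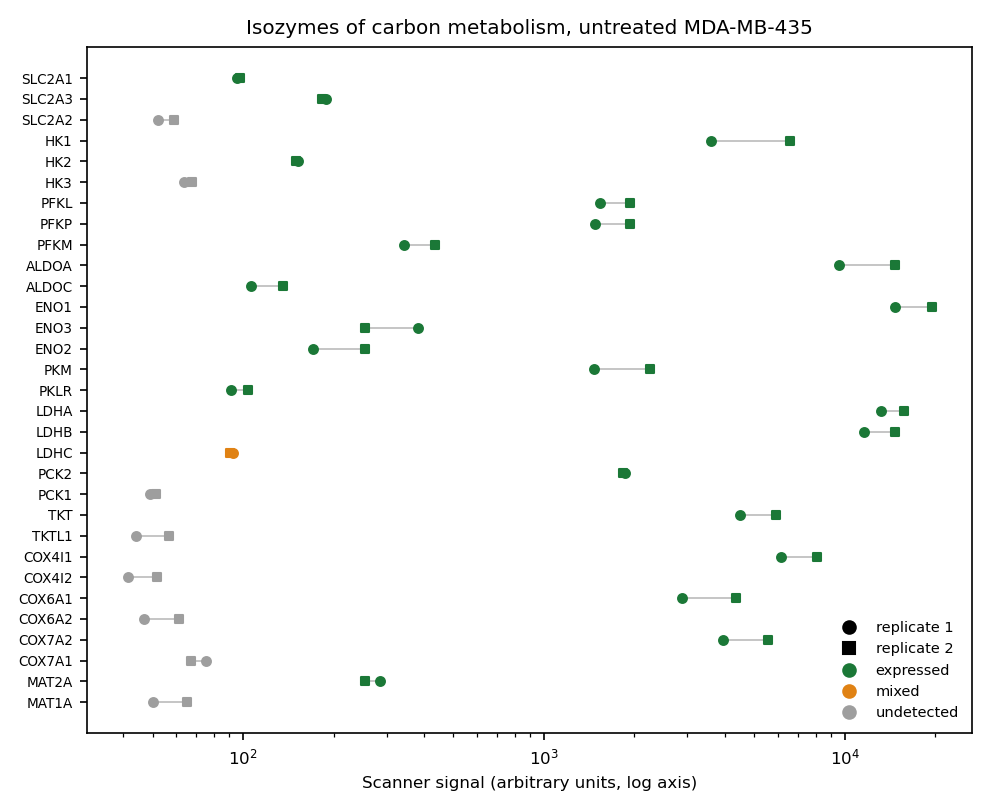
Scanner signal (horizontal, arbitrary units, log axis) of 31 genes of carbon metabolism that form isozyme or relative sets (rows) on untreated replicate 1 (circles) and replicate 2 (squares), with green for expressed, orange for mixed and grey for undetected genes. COX4I1, at 6124 and 8059, was expressed and COX4I2, at 41.3 and 51.8, was undetected.

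Genes of serine, glutamine and cystine handling were bright in the amino acid list. Of 40 genes 29 were expressed, 2 mixed and 9 undetected (72.5% against 52.5% of all genes). PHGDH, which opens serine synthesis, read 4511 and 5008, the mitochondrial serine enzyme SHMT2 3807 and 3854, ASNS 2862 and 2341 and glutamine synthetase GLUL 1808 and 2755. The cystine transporter SLC7A11 stood at 11662 and 10808, the 99.6 percentile, with its partner chain SLC3A2 at 1679 and 1769, the glutamine carrier SLC1A5 at 3396 and 4102 and SLC7A5 at 1271 and 1701. MAT2A was expressed (286 and 254) and its liver counterpart MAT1A undetected (50.3 and 65.1). In the urea cycle CPS1 was dim (173 and 177), OTC was undetected (52.6 and 57.7) and ASS1, which makes argininosuccinate, was mixed (106 and 91.1), while ASL read 186 and 266.

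Sterol genes were mostly expressed, and fatty acid genes at a share near that of all genes. Of 40 genes 28 were expressed, 4 mixed and 8 undetected (70% against 52.5% of all genes). By role, 14 of 16 sterol genes were expressed (87.5%) and 2 mixed, and 14 of 24 genes of fatty acid synthesis and oxidation were expressed (58.3%), 2 mixed and 8 undetected. SCD, the desaturase, read 6851 and 7798, the fatty acid synthase FASN 2632 and 3782, and the sterol enzymes IDI1 2001 and 2350.2, FDPS 1426 and 1588 and SQLE 1423 and 1479. Of the fatty acid binding proteins FABP7, of neural crest and glia, read 2359 and 2494 (log2 11.22 ± 0.15 SD, n = 2), and FABP5 (59 and 52.2) and the fat-cell form FABP4 (48.9 and 56.7) were undetected. The apolipoprotein APOD read 363 and 537 and APOE was mixed (108 and 70.1).

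Among 24 genes of metal and redox biology 18 were expressed, 0 mixed and 6 undetected (75% against 52.5% of all genes). Thioredoxin, TXN, read 5505 and 6695, the transferrin receptor TFRC 4746 and 5571, ferritin light chain FTL 4392 and 5240.1 and GPX1 2613 and 3714. GSTP1 was higher on replicate 2 (1518 and 3013), and MELTF, first known as melanotransferrin, had 1 of 3 probes expressed near the floor (91.6 and 132). Of 13 genes of xenobiotic metabolism 5 were expressed, with the aldehyde dehydrogenase ALDH1A1 at 814 and 810.4 and ADH5 at 1106 and 1289, and CYP1B1 was undetected (56.1 and 56.4).

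The 10 expressed genes with the widest gap between the arrays show what the duplicates did not fix. FCRLA, a protein of B cells and melanocytes, read 871 and 397, a difference of log2 -1.43 (replicate 2 minus replicate 1), and VN1R2, a pheromone receptor gene by its annotation, 832 and 2654 (1.42). FCRLA was lower and VN1R2 higher on replicate 2. Also higher there were the mitotic kinase PLK1 (218 and 542) and the cytidine deaminase APOBEC3B (239 and 576). Also lower there were the early response factor EGR1 (323 and 179), HLA-DPA1 (223 and 117), MUC15 (512 and 294), KCNAB1 (392 and 226), ZNF667 (910.5 and 564) and SNAPC1 (882 and 549). With 1 array against 1 array these gaps have no test. The melanocyte list had a median difference of log2 -0.10 and the cell cycle list of 0.17, against 0.02 over all genes. Within the cell cycle list the median was 0.32 for cyclins and kinases and -0.02 for suppressors.

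At the threshold itself genes on either side were alike in signal. SOCS4 (104.5 and 94.3), MAX (90.6 and 111.4) and SERPINI1 (92.2 and 94.4) were just inside it. Just outside lay SFMBT1 (90.5 and 119.3), PLXNB3 (96.6 and 94.2) and SLC16A10 (90.5 and 103.8), each missing the score on 1 array.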

How the data were processed

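The study measured RNA of 5 groups of MDA-MB-435 cells, each on 2 Human-8 V1 bead arrays (Illumina). The authors deposited 1 scanner table per array, written by BeadStudio 1.5.1.3 per the labels, with the intensity of each probe on a linear scale, neither background subtracted nor normalised, a detection score given as a fraction from 0 to 1, and the bead number. They also deposited background-subtracted, rank-invariant normalised intensities, which for the untreated arrays were a straight line of the scanner values within 0.102.

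Of 24136 probes, 22 controls and 9 lacking an intensity were set aside. Intensities were quantile normalised over the 10 arrays with limma 3.58.1 in R 4.3.3 and brought to log2 with no offset. Of the 24105 probes, 18758 had 1 gene symbol and 5347 were unnamed, and none had several. Symbols were updated through RefSeq by Entrez number (18688 probes), accession, symbol or synonym, and 2 outdated list symbols likewise. A gene's level is that of its brightest probe. The counting code was run on simulated scores, where 200 of 200 planted genes were recovered. Planted scores all lay at or above the cut and the others under it. The run therefore checked the code and not the reliability of the expressed calls. No test was run, since 2 arrays of 1 group allow none. The untreated arrays had a median of 26 and 32 beads per probe, and the number of arrays limits the precision.

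Named were all genes marked as anchors of a list, the 25 brightest genes, up to 4 brightest expressed genes of each role in a list, and the 10 with the widest gap between arrays. Other genes named, among them PRDX1, TBP, BAX, BAK1, CASP10, ESRP2, OVOL2, CMKLR2, MAGEA6, COL1A2, COL3A1, SLC45A2, OCA2 and TRPM1, were chosen after their values were seen. Genes and lists were chosen with earlier results of these data known. The alternatives were other detection cuts, bead minimum, normalisations and probe rules, and leaving out each array.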

Additional observations from a re-analysis of the deposited data

Results flagged for a closer look

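The control probes were outside the measurement, and 2 of them carried signal. The probe neo1 for the neomycin resistance gene read 8580.5 on untreated replicate 1 and 11356.2 on replicate 2, and neo2 read 12085 and 16779. The other 20 control probes, for bacterial, viral and reporter genes, read 65.4 to 89.4 on replicate 1 and 53.8 to 87.1 on replicate 2, and 0 of them reached the detection score on either array. The neo signals were at least 96.0 times the highest of these on the same array. Labels and methods used here do not mention a neo gene in the untreated cells, and its source was not tested.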

How the results depend on the processing

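The counts of expressed probes and genes stayed within 1.5 times their value under every alternative run. Without untreated replicate 1 or 2 there were 11444 to 11507 expressed probes and 9104 to 9253 expressed genes, and with a score of 1 there were 8696 and 7392. The lists with few expressed genes moved most. With detection on at least 1 array, 3 epithelial, 4 leukocyte and 5 endothelial genes were expressed, in place of 1, 2 and 2. Leaving out an array gave 2 epithelial genes in either case, and 5 endothelial genes without replicate 1 against 2 without replicate 2. With a score of 1 the leukocyte count was 1 and that of other organs 0, and with 15 or more beads the latter was 1. Requiring a level above every olfactory receptor, a choice made after seeing the data, left 6269 genes, of them 1 mammary, 0 leukocyte, 1 endothelial and 0 of other organs. Under the other normalisations 99 or 100 of the 100 brightest genes were shared, 92 with the mean over a gene's probes, and 90 and 95 without replicate 1 and 2. Averaging a gene's probes moved the median percentile of a list by up to 10.996 points. No paired analysis was possible because the results come from 1 group and from no test. Genes within the range of olfactory receptor probes (up to log2 7.36) are limited by signal over background.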

Other observations

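Gene families read from their symbols, chosen after the data were seen, add to the picture of the untreated cells. Protein synthesis and breakdown were widely represented, with 75 of 75 mitochondrial ribosomal proteins, 68 of 72 cytosolic ones and 32 of 35 proteasome subunits expressed, against 52.5% of all genes. The proton pump that acidifies lysosomes and melanosomes had 17 of 21 subunit genes expressed, led by ATP6V0C (4435 and 6681) and ATP6V1B2 (5146 and 5596). Of 15 cathepsins 8 were expressed (53.3%), with CTSA at 6575 and 6384 and CTSZ at 3407 and 5341. Of 48 keratins 10 were expressed (20.8%), and KRT10 (734 and 919.9), KRT18 and KRT84 (179.6 and 248) were above every olfactory receptor. Potassium channels had 12 of 74 expressed (16.2%) and collagens 10 of 43 (23.3%), with COL9A1 the brightest (982 and 1029).

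The HOX, SOX and PAX families of developmental regulators had shares under the 52.5% of all genes. Of 29 HOX genes 10 were expressed (34.5%), with HOXB7 (441 and 612), HOXC6 (364 and 561) and HOXD8 (339.6 and 338) at the highest levels. Of 19 SOX genes 5 were expressed (26.3%), SOX10, SOX9, SOX4 (394 and 459), SOX13 (219 and 293) and SOX8 (121 and 188). Of 9 PAX genes 1 was expressed (11.1%), and this was PAX7 (198 and 259.9) and not PAX3. These families were described by counts, with no test.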
